A study of Mus musculus with 6 samples.

Results

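Erythropoietin and KIT receptor signalling was followed through 10 genes, namely the receptor genes Epor and Kit, the kinase gene Jak2, the transcription factor genes Stat5a and Stat5b, the inhibitor genes Cish, Socs2, Socs3 and Sh2b3, and the kinase gene Pim1. These members were given by name, and each was represented by its RefSeq transcript with the highest mean count over all libraries. All 10 were found among the 23896 genes of the deposited counts, and all 10 passed the filter on low counts, as did 12381 genes in all. The libraries were made from murine erythroleukemia (MEL) cells, an established mouse line blocked at the proerythroblast stage, at 0, 2 and 4 days after 2% DMSO was added to induce erythroid differentiation, with 2 biological replicates on each day and 6 libraries in all. All cultures were grown in minimal essential medium with 10% serum, and the labels name neither erythropoietin nor KIT ligand among the additions. A culture that was not induced and was kept for 2 or 4 days is not among these samples, so the effect of DMSO and that of time in culture cannot be told apart.

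The erythropoietin receptor has no enzymatic activity of its own and is bound by the Janus kinase JAK2, which is activated when erythropoietin brings receptor chains together and which then phosphorylates the receptor and the transcription factors STAT5A and STAT5B. Phosphorylated STAT5 enters the nucleus and activates genes for survival and growth, including Pim1, as well as genes such as Cish, Socs2 and Socs3, whose proteins bind the receptor complex and shut it down. KIT is a receptor tyrosine kinase for stem cell factor that erythroid progenitors need to expand and that they lose as they mature, and the adaptor LNK, encoded by Sh2b3, restrains signals from both receptors. MEL lines descend from cells infected with Friend virus, and an envelope glycoprotein of that virus complex can bind and activate the erythropoietin receptor.

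Each library held between 35294930 and 53899476 counts on transcripts, which were expressed in counts-per-million units (CPM) after scaling with TMM factors, which adjust for differences in composition between libraries. Changes were called where 1 edgeR quasi-likelihood fit over all 6 libraries gave a p, adjusted by the method of Benjamini and Hochberg, under 0.05, and they are given for the first step (day 0 to day 2), the second step (day 2 to day 4) and the whole course (day 0 to day 4). The labels call the replicates biological without saying what was separate, so p-values measure the spread between these libraries. Of 10 erythroid markers, 9 were measured, and their summed level was 852 to 929 CPM at day 0, 1321 to 1425 CPM at day 2 and 2968 to 3283 CPM at day 4. Over the whole course 8 of these 9 were called higher and 1 lower, beside 35.5% and 36.4% of all tested genes. The summed levels of 8 measured myeloid and 8 lymphoid markers did not exceed 2.6 and 1.62 CPM in any library, and S100a8, Ms4a1, Cd8a and Ncr1 were at 0 throughout. Markers of megakaryocytes, of which 6 were measured, summed to 270 to 273 CPM at day 0 and 562 to 634 CPM at day 4, most of it from Itga2b. Reads on no transcript made up 50.5% to 58.4% of their sum with the counts on transcripts. Reads that were ambiguous, of low quality or not uniquely aligned are outside this sum. Of the counts on transcripts, 3.78% to 4.98% fell on the ribosomal RNA precursor.

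Epor, the gene of the erythropoietin receptor (NM_010149, chromosome 9 from 21958897 to 21963576 of GRCm38), rose at both steps of differentiation. It was at 163 and 165 CPM in the day 0 libraries, at 213 and 243 CPM at day 2, and at 368 and 460 CPM at day 4. Every library of a later day lay above every library of an earlier day. The first step had a log2 fold change of 0.48 with an SE of 0.13 (edgeR adjusted p = 0.00887), and the second step one of 0.86 with an SE of 0.13 (edgeR adjusted p = 0.00117). Over the whole course Epor rose 2.52-fold, with a 95% interval from 2.06 to 3.10 and an edgeR adjusted p of 5.18e-06. The early step rested on both day 2 libraries, since without replicate 2 of that day the log2 fold change was 0.38 and no longer passed (edgeR adjusted p = 0.104). In bulk libraries such as these, a change in the number of cells of a kind and a change in the RNA of each cell cannot be told apart. The window from 250 bases before to 50 bases after the RefSeq start of Epor held 1 match to the letters GATA preceded by A or T and followed by A or G, counted on both strands. The stretch around it is shown because GATA factors are the best known activators of erythroid promoters, with the match in capitals, from chr9:21963613-21963642 of GRCm38 read 5′ to 3′ on the minus strand.
Epor: ggtggctgtagcTTATCTgtccccagcctg
The match starts at position -54, where position 0 is the first transcribed base, and such words were present in 29.8% of all 32851 promoter windows of the same length, so the match is a description only.

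Kit (NM_001122733, chromosome 5 from 75574987 to 75656722) was close to absent even before induction. Its transcript had 23 and 24 counts in the day 0 libraries, 2 counts in each day 2 library and 0 counts in both day 4 libraries. These counts correspond to 0.564 and 0.483 CPM at day 0 and to 0.0479 and 0.0407 CPM at day 2. From the summed counts of 47 and 4, the level at day 0 was 11.8 times that at day 2, with an exact 95% interval from 4.32 to 45.1 that covers counting error only, and the day 2 libraries were lower in the fit across all transcripts (edgeR adjusted p = 0.000295). Against the level that 3 counts in each day 4 library would give, Kit was at least 7.01-fold lower at day 4 than at day 0, and the fit called this change as well (edgeR adjusted p = 4.63e-05). Days 2 and 4 both lay at or under 3 counts per library, so no change between them is given. Another KIT transcript in the files, NM_021099, had the same counts in every library. Mast cells also carry KIT, and the summed level of 7 mast cell markers moved with Kit, at 7.01 to 7.51 CPM at day 0, 0.742 to 0.855 CPM at day 2 and 0.486 to 0.803 CPM at day 4. Of these markers 5 were tested and 4 were called lower at day 4 than at day 0, where 36.4% of all tested genes were lower. Tpsb2 was at 0 in every library, and the part of these markers in the fall of Kit was not tested.

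**Figure D1:**
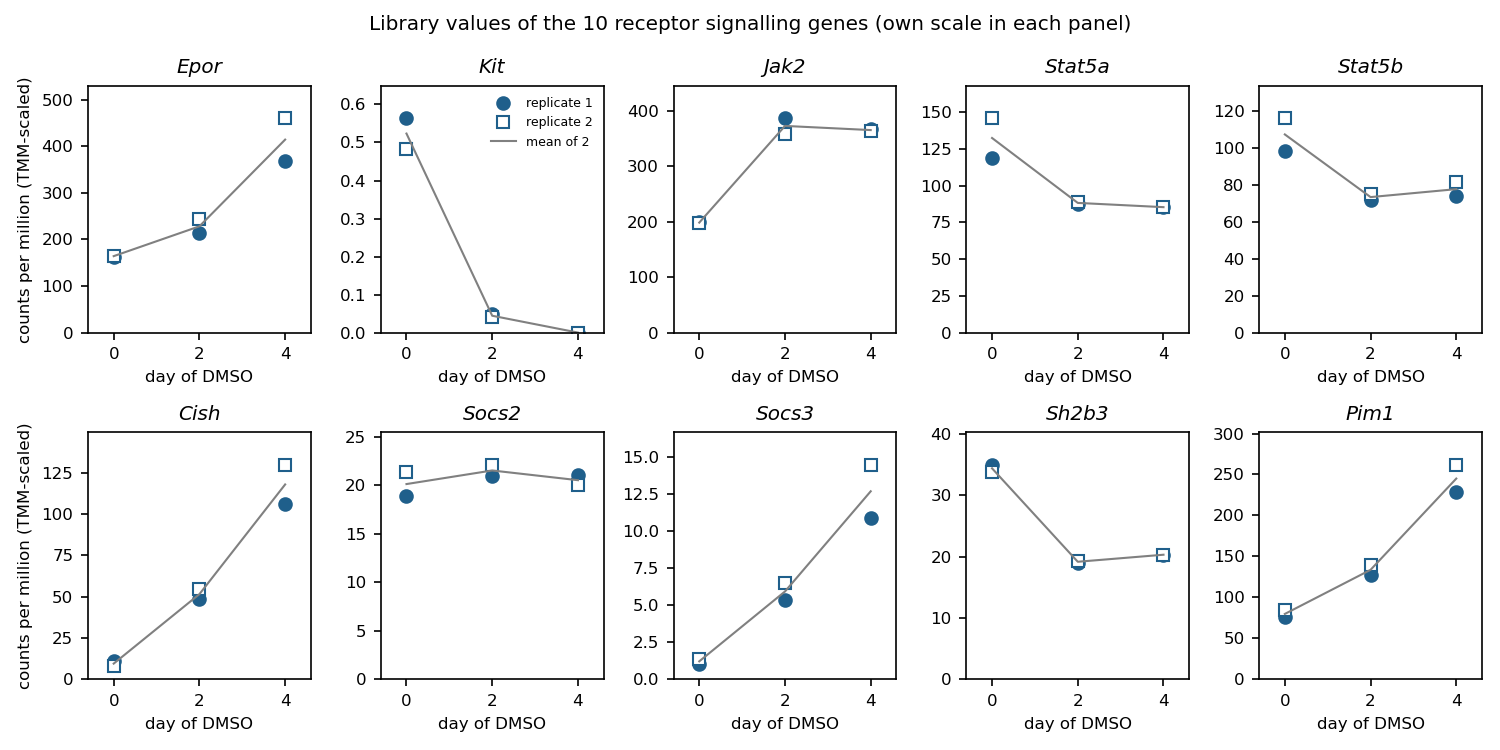
Level in CPM of the 10 genes in each library (circles, replicate 1; squares, replicate 2; line, mean of the replicates) against the day of DMSO treatment, each panel with its own vertical axis from 0. Epor, Cish, Socs3 and Pim1 rise at both steps, Jak2 rises and Stat5a, Stat5b and Sh2b3 fall by day 2 only, Socs2 stays between 18.9 and 22.1 CPM, and Kit falls from about 0.5 CPM to 0.

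Jak2, which encodes the kinase bound to the erythropoietin receptor (NM_008413, chromosome 19 from 29251803 to 29313095), rose by day 2 and was not distinguishable from that level at day 4. The libraries gave 200 and 197 CPM at day 0, 387 and 359 CPM at day 2, and 367 and 364 CPM at day 4. Both later days lay well above day 0 and overlapped with each other. The rise by day 2 was 1.88-fold (95% interval 1.59 to 2.22, edgeR adjusted p = 4.09e-05), whereas the ratio of day 4 to day 2 was 0.981, with a 95% interval from 0.83 to 1.16 (edgeR adjusted p = 0.871). The difference between the steps was itself called (log2 difference -0.94, SE 0.19, edgeR adjusted p = 0.00455). The length-scaled level of Jak2 relative to Epor was 0.430 and 0.418 at day 0, 0.634 and 0.517 at day 2, and 0.349 and 0.277 at day 4. This ratio was thus highest in both day 2 libraries and lowest in both day 4 libraries.

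The STAT5 genes, by contrast, fell. Stat5a (NM_011488, chromosome 11 from 100859351 to 100885169) was at 119 and 146 CPM at day 0, 87.4 and 89.2 CPM at day 2, and 85.2 and 85.6 CPM at day 4. Stat5b (NM_011489, chromosome 11 from 100780731 to 100859004) was at 98.4 and 116 CPM, then 71.7 and 74.9 CPM, and finally 74 and 81.2 CPM. For both genes the day 0 libraries lay above all others. By day 2, Stat5a was at 0.667 of its day 0 level (95% interval 0.558 to 0.797, edgeR adjusted p = 0.00123) and Stat5b at 0.683 (95% interval 0.574 to 0.812, edgeR adjusted p = 0.00148). Neither changed detectably afterwards, with day 4 to day 2 ratios of 0.967 (95% interval 0.809 to 1.16) for Stat5a and 1.06 (95% interval 0.891 to 1.26) for Stat5b. Over the whole course Stat5a fell by 0.63 (SE 0.12, edgeR adjusted p = 0.000514) and Stat5b fell by 0.47 on the log2 scale (SE 0.11, edgeR adjusted p = 0.00319). Per kilobase, Stat5a stood above Stat5b in every library, by a ratio of 1.62 and 1.69 at day 0, 1.64 and 1.60 at day 2, and 1.54 and 1.41 at day 4. These neighbouring genes are near copies, as 21.7% of the 31-base words of Stat5a occur in Stat5b and 16.1% of those of Stat5b occur in Stat5a, so reads from the shared parts cannot be assigned with certainty and the similar course of the genes is not fully independent. Stat5a also shares 1.09% of its words with the opposite strand of its neighbour Stat3.

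Cish and Socs3, which encode inhibitors that are switched on by STAT signalling, had the largest rises among the members. Cish (NM_009895, chromosome 9 from 107296659 to 107302784) was at 11.1 and 7.66 CPM at day 0, 48.5 and 54.5 CPM at day 2, and 106 and 130 CPM at day 4. It rose 5.52-fold by day 2 (95% interval 4.24 to 7.19, edgeR adjusted p = 1.04e-06) and 2.29-fold from day 2 to day 4 (95% interval 1.79 to 2.92, edgeR adjusted p = 0.000578). At day 4 the level was 12.6-fold that of day 0, with a 95% interval from 9.61 to 16.6 (edgeR adjusted p = 4.11e-08). The first step was the larger on the log2 scale, by 1.27 (second minus first step -1.27, SE 0.27, edgeR adjusted p = 0.00686).

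Socs3 (NM_007707, chromosome 11 from 117966079 to 117970336) was expressed far lower, at 1.05 and 1.35 CPM at day 0, 5.32 and 6.53 CPM at day 2, and 10.9 and 14.5 CPM at day 4. Its rise was 4.90-fold by day 2 (95% interval 3.48 to 6.88, edgeR adjusted p = 8.13e-06) and 2.14-fold from day 2 to day 4 (95% interval 1.61 to 2.85, edgeR adjusted p = 0.00185). The later step missed the threshold when replicate 1 of day 2 was left out (log2 fold change 0.96, edgeR adjusted p = 0.0504). Day 4 against day 0 gave 10.5-fold (95% interval 7.49 to 14.7, edgeR adjusted p = 2.39e-07).

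The promoter windows of Cish and Socs3 both held the STAT word TTCNNNGAA, which is its own reverse complement and was present in 8.3% of all 32851 windows. Among the 9 members with a window in the RefSeq table (13 windows), these were the only 2 with a match, and no window was given for Socs2. The stretches are shown since STAT5 is the factor that the erythropoietin receptor activates, with the matches in capitals. The first is chr9:107296654-107296683 on the plus strand, whose 2 matches start at positions 0 and 11 from the start of Cish, and the second is chr11:117969502-117969530 on the minus strand, where the match starts at position -154 from the RefSeq start used for the window. That start lies inside the extent printed above for Socs3, which reaches further upstream, so the match is also within that extent.
Cish: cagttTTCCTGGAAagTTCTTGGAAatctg
Socs3: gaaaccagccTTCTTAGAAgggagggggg
A match of letters is not a bound site, and binding of STAT5 was not measured here.

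Socs2 (NM_007706, chromosome 10 from 95383903 to 95417321), another inhibitor of the same family and also known as a STAT5 target, differed from Cish and Socs3 in that no change was called. It was at 18.9 and 21.3 CPM at day 0, 20.9 and 22.1 CPM at day 2, and 21 and 20 CPM at day 4. The days overlapped in all comparisons. The ratio of day 4 to day 0 was 1.02, with a 95% interval from 0.848 to 1.22 (edgeR adjusted p = 0.849), so a change of the size seen for Cish lies outside the interval. Of its 31-base words, 21.7% also occur in the annotated gene Gm9847, so its level is uncertain, and its 4 RefSeq transcripts differed by up to 10.9% in count.

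Sh2b3, the gene of the adaptor LNK (NM_008507, chromosome 5 from 121815481 to 121837645), fell by day 2 and then held its level. The values were 35 and 33.8 CPM at day 0, 19 and 19.3 CPM at day 2, and 20.3 and 20.3 CPM at day 4. By day 2 it was at 0.557 of the day 0 level (95% interval 0.470 to 0.660, edgeR adjusted p = 7.32e-05). Although both day 4 libraries lay slightly above both day 2 libraries, the ratio of 1.06 had a 95% interval from 0.892 to 1.26 and was not called (edgeR adjusted p = 0.609). Of the 4 inhibitors, 2 rose, 1 fell and 1 was not called over the 4 days, where 35.5% of all tested genes were called higher and 36.4% lower.

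Pim1, a serine/threonine kinase gene that STAT5 activates (NM_008842, chromosome 17 from 29490785 to 29496111), rose by similar amounts at both steps. It was at 75.3 and 83.9 CPM at day 0, 127 and 140 CPM at day 2, and 228 and 262 CPM at day 4, with no overlap between days. The rise was 1.68-fold by day 2 (95% interval 1.40 to 2.01, edgeR adjusted p = 0.000259) and 1.83-fold from day 2 to day 4 (95% interval 1.53 to 2.20, edgeR adjusted p = 0.000594). Over the whole course it was 3.08-fold (95% interval 2.56 to 3.70, edgeR adjusted p = 5.97e-07). The steps differed by 0.13 on the log2 scale, with a 95% interval from -0.32 to 0.58. Transcripts of Gm26885 and Gm17041 hold, on the opposite strand, 13.3% of the 31-base words of Pim1 and 15% of those of Cish, and as the strand setting of the counting is not given in the sources used here, reads from these could be included.

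**Figure D2:**
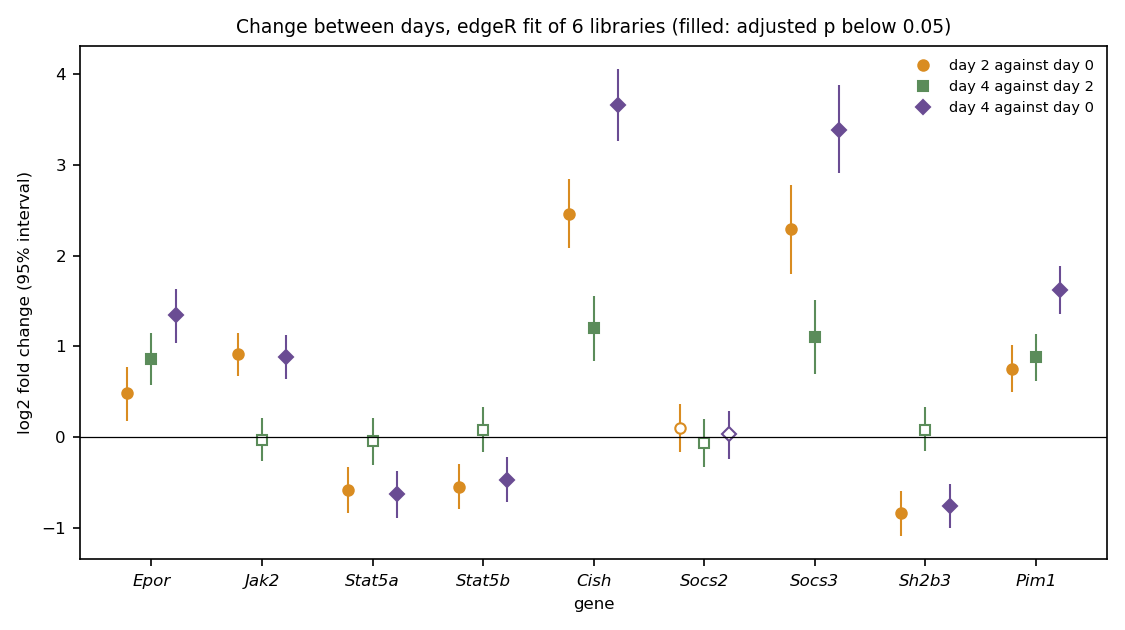
Log2 fold change of each gene except Kit between the days (circles, day 2 against day 0; squares, day 4 against day 2; diamonds, day 4 against day 0) with 95% intervals, filled where the edgeR adjusted p was below 0.05. Cish and Socs3 stand highest at 3.66 and 3.39 for day 4 against day 0, Stat5a, Stat5b and Sh2b3 lie below 0 for the comparisons with day 0, and every Socs2 interval includes 0.

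Counted over the 10 members, 9 were called in the first step, of which Epor, Jak2, Cish, Socs3 and Pim1 were higher and Kit, Stat5a, Stat5b and Sh2b3 lower. Calls were common among all genes, with 62.5% of 12381 tested genes called (31% higher and 31.5% lower). This balance depends on the scaling, since with total counts in place of TMM factors 40.4% were higher and 23.3% lower, and in the second step 9.92% and 20.5%, while the same number of members was called. Both day 2 libraries lay above both day 0 libraries for 5 members and below them for 4, where 40.8% and 39.7% of all genes did so. In the second step 4 members were called, all higher (Epor, Cish, Socs3 and Pim1), against 30.3% of all genes (14.0% higher and 16.2% lower). Here the libraries lay apart for 5 members upwards and 2 downwards, against 36.6% and 37.4% of all genes. The 2 downwards include Kit, which was at or under 3 counts in every library of both days. The whole course gave again 9 members, the same 5 higher and 4 lower as at day 2, against 71.8% of all genes (35.5% higher and 36.4% lower), and day 4 lay wholly above day 0 for 5 members and wholly below for 4, against 42.3% and 42.4%. The 4 genes that rose at both steps compare with 8.33% of all genes. The median log2 fold change of the members was 0.29, 0.08 and 0.46 in the order given, beside 0.01, 0.00 and -0.02 over all tested genes, and the last member value is the same with Kit at its bound. When the log2 fold change also had to reach 1 in either direction, 3, 2 and 5 members remained called, against 23.2%, 5.94% and 35.6% of all genes. A different size of the first and the second step was called for 5 members (Jak2, Stat5b, Cish, Socs3 and Sh2b3) and for 30% of all genes. This count rested on the day 2 libraries, as it fell to 0 when either was left out, and to 3 without replicate 1 of day 4.

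Levels of different genes were compared per kilobase of transcript, with lengths from GENCODE. At day 0, Epor had the highest level of the 10 genes, at 93.1 ± 0.661 CPM per kilobase (SD, n = 2), ahead of Jak2 at 39.5 ± 0.524, Stat5a at 34.1 ± 5.02 and Pim1 at 29.5 ± 2.25. Both Jak2 libraries lay above both Stat5a libraries, by a difference of means close to the SD of Stat5a, whereas Stat5a and Pim1 overlapped. Below them came Stat5b at 20.6 ± 2.40, Sh2b3 at 13.6 ± 0.347, Socs2 at 9.05 ± 0.741, Cish at 3.29 ± 0.849, Socs3 at 0.471 ± 0.0820 and Kit at 0.100 ± 0.0109 CPM per kilobase. By day 4 the order had changed. Epor stayed first at 235 ± 36.9, followed by Pim1 at 90.8 ± 8.82, Jak2 at 72.7 ± 0.427 and Cish at 41.4 ± 5.79 CPM per kilobase, so that Cish stood above both STAT5 genes, at 22 ± 0.0726 for Stat5a and 14.9 ± 0.979 for Stat5b. Socs2 at 9.23 ± 0.297 lay above Sh2b3 at 8.02 ± 0.0207 by more than the SD of either, Socs3 reached 4.97 ± 0.999 and Kit had no counts. Relative to Epor, the level of Cish per kilobase was 0.0420 and 0.0287 at day 0. It was 0.140 and 0.139 at day 2, and 0.178 and 0.174 at day 4. This ratio was thus higher in each library of a later day than in any library of an earlier day. Pim1 relative to Epor varied less, with ratios of 0.301 and 0.332 at day 0. The ratios were 0.39 and 0.375 at day 2 and 0.405 and 0.371 at day 4, all above both day 0 libraries.

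**Figure D3:**
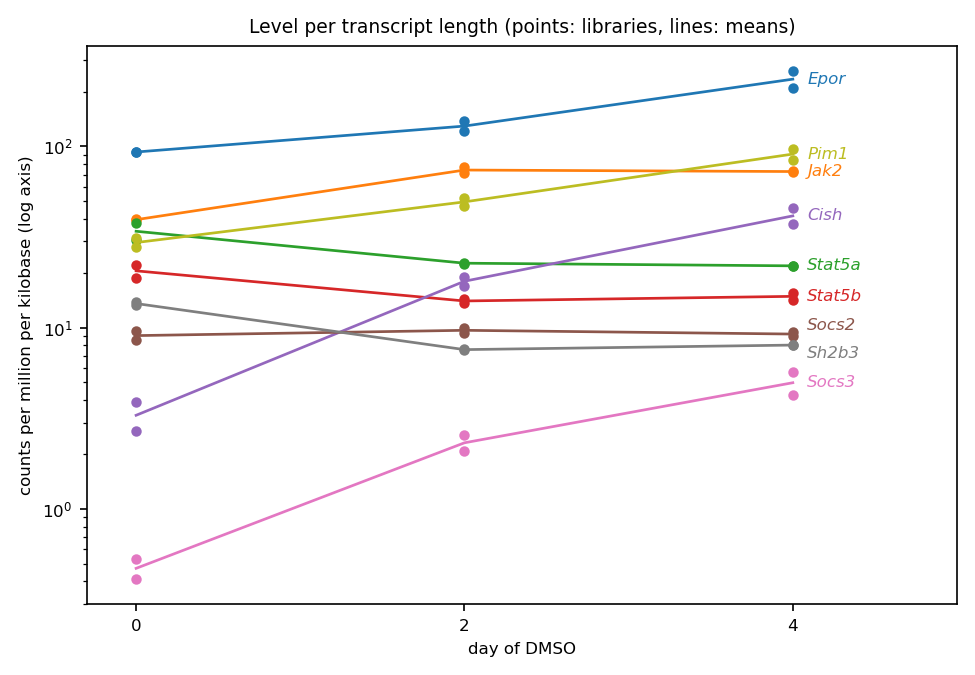
Level in CPM per kilobase of transcript (log axis) of the 9 genes other than Kit against the day of DMSO treatment, with points for libraries and lines for means of 2 replicates. Epor is highest on every day, Cish climbs from 3.29 to 41.4 and passes Stat5a and Stat5b, and Socs3 stays lowest at 4.97 on day 4.

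The genes whose course over the 6 libraries lay nearest to those of the receptors were sought among genes whose average abundance in edgeR reached 1 on the log2 CPM scale, by the root mean square distance between centred log2 CPM values. For Epor these were Slc35a2, a nucleotide sugar transporter gene, and Sap25 and Syvn1, at distances of 0.04, 0.05 and 0.05, followed by Stk11 and Cabin1 at 0.07 each, out of 10453 genes. Syvn1, which encodes an endoplasmic reticulum ubiquitin ligase, went from 50.2 and 45.3 CPM at day 0 to 112 and 132 CPM at day 4. Stk11, a kinase gene, went from 123 and 131 CPM to 252 and 330 CPM. For Kit, the nearest were Ggct, Coro1a, Celf2, Sla and Crispld2, at distances between 0.08 and 0.12. Coro1a, an actin-binding protein gene, fell from 376 and 291 CPM at day 0 to 30.8 and 29.5 CPM at day 4, whereas the values of Kit near 0 depend on the prior count of 2 used for the logarithm, so its neighbours are less certain.

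Beyond the members, 120 genes of the surrounding pathway were taken in 6 lists by function, of which 106 were tested. In these lists 75 genes were called in the first step (38 rose, 37 fell), 29 in the second (21 rose, 8 fell) and 78 over the whole course (43 rose, 35 fell). These counts correspond to 70.8%, 27.4% and 73.6% of the 106 genes, beside 62.5%, 30.3% and 71.8% of all genes. Without regard to direction, the calls were thus about as frequent as elsewhere. By direction the second step was less alike, since 21 of the listed genes rose and 8 fell. Among all genes 14.0% were called higher and 16.2% lower in that step, and this difference in split was not tested. As the lists were chosen with earlier results of these data known, the split is a description only. For the whole course, to which the counts of the single lists refer, 35.5% of all tested genes were called higher and 36.4% lower. The ligand genes Epo, Kitl and Thpo had 0 counts in all libraries, and Il3 had 1 count in total.

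Of 13 tested ligand and receptor genes, 7 were higher and 3 lower at day 4 than at day 0, beside 35.5% and 36.4% of all genes. Csf2rb, the shared beta chain of the interleukin-3 receptor family, rose from 378 and 385 CPM at day 0 to 1437 and 1312 CPM at day 4 (a log2 fold change of 1.85 with SE 0.13, edgeR adjusted p = 4.7e-07). Its near copy Csf2rb2, with which it shares 29.2% of the 31-base words of Csf2rb2, rose by a log2 fold change of 3.76, from 81.7 ± 5.92 to 1110 ± 96.7 CPM (SD, n = 2, edgeR adjusted p = 1.24e-08), and reads in the shared parts could be counted for either. Il6st, the signalling chain of interleukin-6 type receptors, rose by 1.96 and Il2rg, the common gamma chain gene, fell by 2.22 on the log2 scale (edgeR adjusted p = 4.14e-07 and 3.43e-07). Csf2rb was named for its relation to Csf2rb2 and was chosen after its values were seen.

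Among the other Janus kinase and STAT genes, 6 of 7 tested were higher at day 4 and 0 were lower, beside 35.5% and 36.4% of all genes, with a median log2 fold change of 1.19 beside -0.02 over all genes. Jak3 rose from 16.6 ± 0.982 to 92.3 ± 21.5 CPM (SD, n = 2, log2 fold change 2.48, edgeR adjusted p = 2.02e-07) and Tyk2 from 168 ± 14.5 to 433 ± 9.36 CPM (log2 fold change 1.37, edgeR adjusted p = 2.13e-06). Stat5a and Stat5b, which fell, differed in direction from these relatives. Stat6 was the tested gene of this list that was not called, with a log2 fold change of 0.14 (edgeR adjusted p = 0.248).

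Of the other genes listed here as negative regulators, 11 of 29 tested were higher and 11 lower at day 4. This is near the 35.5% and 36.4% of all genes. The list also held genes such as Ptpn11 and Sh2b1, which are not only inhibitors. Pias3, an inhibitor of STAT factors, rose from 22.2 ± 1.16 to 95.2 ± 7.80 CPM (SD, n = 2) and the adaptor gene Dok1 by 1.21 on the log2 scale (edgeR adjusted p = 6.79e-08 and 4.68e-05). Spred2, which encodes an inhibitor of the RAS cascade, fell by 3.87, from 21.5 ± 2.54 to 1.46 ± 0.185 CPM (SD, n = 2, edgeR adjusted p = 4.6e-08), and Dusp6, a phosphatase gene that the same cascade switches on, fell by 3.12 (edgeR adjusted p = 3.23e-07).

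The list of adaptor and Src family kinase genes also held other kinase genes, such as Tec, Btk and Syk, and the phospholipase genes Plcg1 and Plcg2. Of its 19 tested genes, 6 were higher and 8 lower, again near the shares of all genes (35.5% and 36.4%). Irs2, an adaptor of insulin and cytokine receptors, averaged 28 ± 0.620, 140 ± 14.2 and 312 ± 18.2 CPM on days 0, 2 and 4 (SD, n = 2) and rose by 3.48 on the log2 scale over the whole course (edgeR adjusted p = 9.02e-09), and Src rose by 0.74 (edgeR adjusted p = 0.000402). The kinase genes Tec and Btk fell by 2.81 and 1.78 on the log2 scale (edgeR adjusted p = 6.77e-08 and 6.53e-07), most of it by day 2. Of the PI3K, AKT and RAS-MAPK genes, 7 of 23 were higher and 7 lower, somewhat under those shares. Braf and Araf rose by 1.23 and 1.18, and Pik3cd, the catalytic subunit typical of blood cells, and the ribosomal S6 kinase gene Rps6ka1 fell by 1.83 and 1.65 (edgeR adjusted p = 1.52e-06, 1.13e-05, 1.5e-07 and 4.37e-07).

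Among other genes listed here as STAT5 targets, 6 of 15 tested were higher and 6 lower at day 4, near the 35.5% and 36.4% of all genes. The 6 lower genes include Egr1 and Fos, which are also early genes of the RAS and ERK cascade. Pim2, a relative of Pim1, rose from 7.21 ± 0.621 to 35.4 ± 3.62 CPM (SD, n = 2, log2 fold change 2.30, edgeR adjusted p = 1.6e-07), and Ccnd2, a cyclin gene, from 182 ± 1.55 to 457 ± 14.7 CPM (log2 fold change 1.33, edgeR adjusted p = 1.27e-06). Id1, a dominant negative regulator of helix-loop-helix factors, fell by 4.34, from a day 0 level with a wide spread of 69.3 ± 37.6 CPM (SD, n = 2) to 3.42 ± 0.290 CPM (edgeR adjusted p = 9.13e-07), and the pseudokinase gene Trib3 fell by 2.77 (edgeR adjusted p = 9.6e-06).

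**Figure D4:**
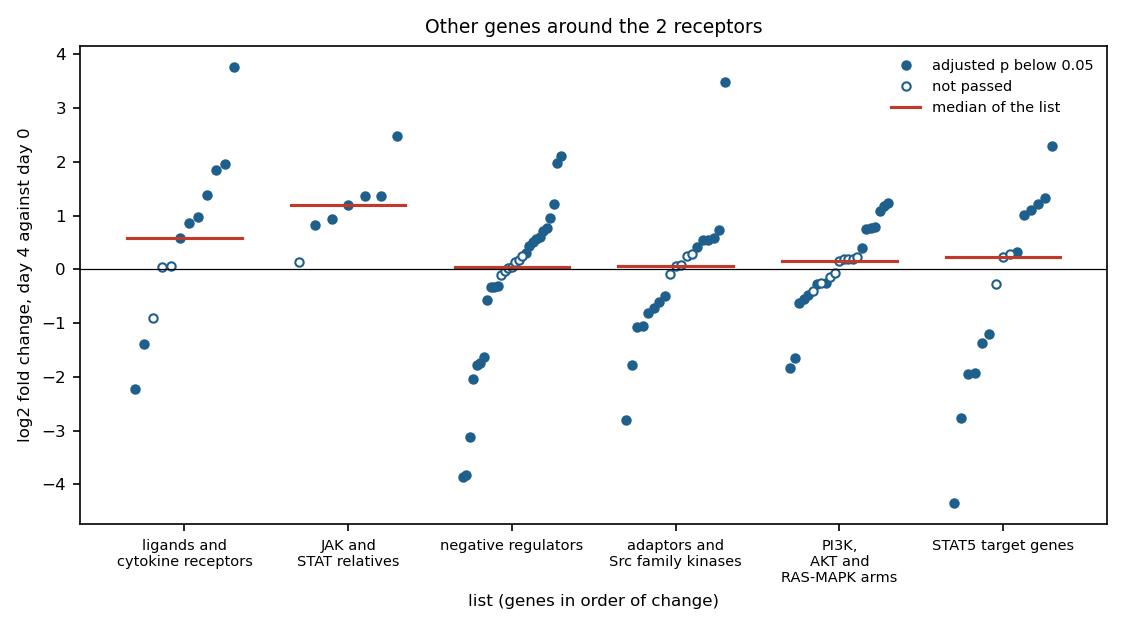
Log2 fold change over the whole course (day 4 over day 0) of the tested genes in 6 lists around the receptors, in rising order within a list, filled where the edgeR adjusted p was below 0.05, with the median of the list as a line. Csf2 is left out since it had 2 counts in total at day 4. The median of the other Janus kinase and STAT genes lies at 1.19, whereas those of the negative regulators and of the adaptors lie at 0.05 and 0.06.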

How the data were processed

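The study's poly(A) RNA libraries were TruSeq stranded. The authors trimmed adapters with cutadapt, used TopHat with the mm10 genome for alignment, and deposited counts per RefSeq transcript that were not normalized; HTSeq is named in the submitters' processing notes, while its strand and overlap settings are not given in the sources used here. Rows that name no transcript were left out. Symbols came from RefSeq (GRCm38) for 32199 of 32654 transcripts and from GENCODE for 187. Counts were tested with edgeR 4.0.16 (R 4.3.3): TMM factors from 0.921 to 1.07, filterByExpr by day (18351 transcripts kept), glmQLFit and glmQLFTest with a mean per day, and Benjamini-Hochberg adjustment over all kept transcripts. DESeq2 1.42.0 was an alternative. Standard errors came from the log2 fold change and F. The fits were tested on simulated data. The members and lists were chosen with earlier results of these data known. The text names all members, of each further list the 2 genes with the largest called rise and the 2 with the largest called fall at day 4 (average log2 CPM in edgeR of at least 1), and the 5 genes nearest to Epor and Kit. Replicate numbers were not used to pair the libraries. Differences between replicates correlated by 0.032 to 0.079 across days, which cannot show whether the same culture was followed through the days.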

Additional observations from a re-analysis of the deposited data

How the results depend on the processing

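Of 420 log2 fold changes of single members under the alternatives (DESeq2, other scalings, no filter, 2 days only, replicate block, other transcripts, libraries left out), 413 kept their direction and side of the threshold, 2 lost the call (given above for Epor and Socs3) and 5, none of them called, turned sign: Stat5b and Sh2b3 for day 4 against day 2 with total counts (-0.00072 and -0.00052), Jak2 for the same step without replicate 1 of day 2 (0.03, from -0.08 with another library left out), and Socs2 for day 4 against day 0 without replicate 1 of day 0 (-0.06) or of day 4 (-0.01, with 0.10 as the highest value). Total counts in place of TMM shift the median over all tested genes, on the log2 scale, by 0.20 in the first step, -0.08 in the second and 0.12 over the whole course, where 39.7% of genes were then higher and 32.4% lower. With the replicate block, 9, 4 and 9 members were called in the first step, the second step and the whole course, as without it, the wider lists gave 76, 32 and 79 genes, and 5 members had different steps; the block changed no member's call.

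A further limit of 1 on the size of log2 fold changes left 3, 2 and 5 members and 31, 7 and 42 wider genes in the same order. Wider genes for day 4 against day 2 numbered 45 when only those days were fitted. With 1 library left out, 8 to 9, 3 to 4 and 9 to 9 members, 60 to 80, 13 to 44 and 69 to 88 wider genes and 0 to 6 members with different steps were called, the lone library of a day being assumed to vary like the others. With 2 libraries per day and few counts, Kit, Socs3 and other low genes are limited by depth.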

Other observations

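Within the list of negative regulators, feedback inhibitors of the RAS and ERK cascade, which KIT and other receptor kinases switch on, were grouped after their values were seen, so the group carries no test. Spred1 averaged 46.2, 25.8 and 14.8 CPM on days 0, 2 and 4 (means of 2 libraries, log2 fold change over the whole course -1.64, edgeR adjusted p = 1.17e-06). Spry4 went from 3.32 to 0.182 and 0.224 CPM (log2 fold change -3.82, edgeR adjusted p = 2.91e-06), alongside the falls of Spred2 and Dusp6. Spry1, at 0.501, 1.41 and 0.968 CPM, was higher at day 4 (log2 fold change 0.96, edgeR adjusted p = 0.0119), and Spry2 had no counts. Egr1 and Fos, early genes of the same cascade that were listed among the STAT5 targets, were lower at day 4 by log2 fold changes of -1.20 and -1.95 (edgeR adjusted p = 1.2e-05 and 0.00131). Fos had few counts, at means of 0.578, 0.131 and 0.144 CPM on days 0, 2 and 4, so its fold change is less certain. Egr1 was lowest at day 2, at 4.54 CPM, and higher again at day 4, at 9.11 CPM (log2 fold change 1.00, edgeR adjusted p = 0.000776).

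The phosphatase genes Ptpn6, whose product SHP-1 dephosphorylates JAK2 at the erythropoietin receptor, and Ptprc, which encodes CD45, fell at both steps. Ptpn6 was at 184, 73.8 and 55.1 CPM and Ptprc at 31.5, 17.7 and 9.10 CPM on days 0, 2 and 4, with log2 fold changes of -1.74 and -1.79 over the course (edgeR adjusted p = 1.93e-07 and 5.28e-07). In the same list, the phosphatase genes Ptpn1 and Ptpn2 changed less, each with a log2 fold change of -0.32 (edgeR adjusted p = 0.0266 and 0.0206). Ptpn11 was not called (log2 fold change 0.05, edgeR adjusted p = 0.693). Bcl2l1, the gene of the survival protein BCL-XL, dipped to 9.23 CPM at day 2 between 14.5 and 17.0 CPM at days 0 and 4, and both steps were called (log2 fold changes -0.65 and 0.88, edgeR adjusted p = 0.00138 and 0.00104). These genes were likewise chosen after their values were seen.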
